A study of Mus musculus with 2 samples.

Results

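The collagen chains were read on 2 Agilent mouse arrays, 1 of mature hepatocytes (MHs) and 1 of Sox9+EpCAM- cells, the hepatocytes that take on features of bile duct cells in injured liver. Spots that are not controls and carry a gene name made of Col, a type number, the letter a and a chain number were taken, which gave 43 genes with 68 probes on 77 of 43020 spots, among 30153 genes on the array. Of 44 mouse genes with such a symbol in the RefSeq gene table, 43 are thus on the array under that name. The 11 fibrillar chains, the 9 chains that form networks and the 23 other chains are described in turn.

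The MHs came from healthy livers of Sox9-EGFP mice by collagenase perfusion and Percoll gradient centrifugation. The Sox9+EpCAM- cells came from livers of Sox9-EGFP mice fed a diet with DDC, a chemical that disturbs haem synthesis and injures the bile ducts, and were sorted by FACS as GFP+EpCAM- cells. In these mice EGFP reports Sox9, so the sort rests on that reporter. For such livers the supplement describes a gate on CD31-CD45- cells, which leaves out endothelial cells and leukocytes, ahead of GFP and EpCAM; whether the cells for the array passed that gate was not given in the sources used here. The labels give both samples as male, and the age, the duration of the diet for these samples and the number of mice behind each array were not given in the sources used here. Diet, way of isolation and group cannot be told apart, since each group has 1 array, and neither can the sex signal described next.

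The 2 arrays share 1 slide and 1 scan. Intensities had a 75th percentile of 741 for MHs and 1110 for Sox9+EpCAM- cells, with 27523 and 32158 spots well above background and 0 saturated. With 1 array per group there is no replicate and no test, and precision is limited by the number of arrays. Among probes printed 8 times or more, the spots of a probe had a median SD of 0.08 (log2 scale) within either array, which covers the spots of an array only. The labels were checked by a few genes. Xist, a transcript of the inactive X chromosome of females, was well above background with both of its probes in MHs and with 0 in Sox9+EpCAM- cells, while of 5 probes of 4 Y-linked genes 0 and 4 were well above background, which goes against the male label of the MH sample. No collagen value can be given without that array, since it is the only one of MHs. Alb, the main plasma protein made by hepatocytes, had intensities of 207000 and 170000 in MHs and Sox9+EpCAM- cells. Sox9, whose reporter was sorted on, had intensities of 8.87, not well above background, and 60.7, and Epcam had 139 and 2770, although the cells were sorted as EpCAM-.

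Collagens are triple helices of chains in which glycine recurs at a fixed spacing. Fibrillar collagens of types I, III and V build the cable-like fibres of scar tissue, type IV builds the sheet under epithelia and endothelia, type VI forms beaded filaments around cells, and types XV and XVIII lie in basement membrane zones. In the liver, stellate cells and portal fibroblasts are the known main source of fibrillar collagen, and endothelial and bile duct cells contribute to type IV. In the bulk RNA measured here, a change in the share of such cells and a change in the RNA per cell cannot be told apart.

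A difference is given as the log2 intensity on the Sox9+EpCAM- array minus that on the MH array, each relative to the 75th percentile of its array. Where a probe did not clear the background in MHs, only a lower bound is given, against 27.8 (the dimmest signal that cleared it) or the signal of the probe itself, whichever was higher. The brightest probe stands for a gene, and a difference of 4-fold, which is 2 on the log2 scale, was the rule of size. Of the 43 collagen genes, 27 cleared the background in both cell populations, 8 in Sox9+EpCAM- cells alone, 0 in MHs alone and 8 in neither. Thus 35 have a difference or a bound.

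Of these 35 genes, 11 had a difference of 4-fold or more towards Sox9+EpCAM- cells, against 5.59% of all 23417 genes measured on at least 1 array. None was at least 4-fold lower, against 5.57% of all genes. The 11 genes were Col1a1, Col1a2, Col3a1 and Col5a1 among the fibrillar chains, Col4a1, Col4a2 and Col8a1 among the network chains, and Col6a1, Col6a2, Col6a6 and Col15a1 among the others. Of the remaining 24, 4 have a lower bound under 4-fold, which sets no ceiling, and 20 were measured on both arrays, of which 2 were 2-fold to 4-fold higher, 1 was 2-fold to 4-fold lower and 17 lay within 2-fold. A gene that passed only through the Sox9+EpCAM- array could not come out lower, so the 27 genes measured on both arrays were also counted, and 7 of them were at least 4-fold higher, against 3.94% of all 19235 such genes. The median log2 difference of the 35 genes was 0.53, and that of all genes was -0.04. Over genes measured on both arrays these medians were 0.41 and -0.20. Scaling to Gapdh shifted the median of all genes by 0.14 and the deposited table by -0.18, with 1650 genes higher and 1006 lower under the first and 1130 higher and 1563 lower under the second, against 1309 and 1304.

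**Figure D1:**
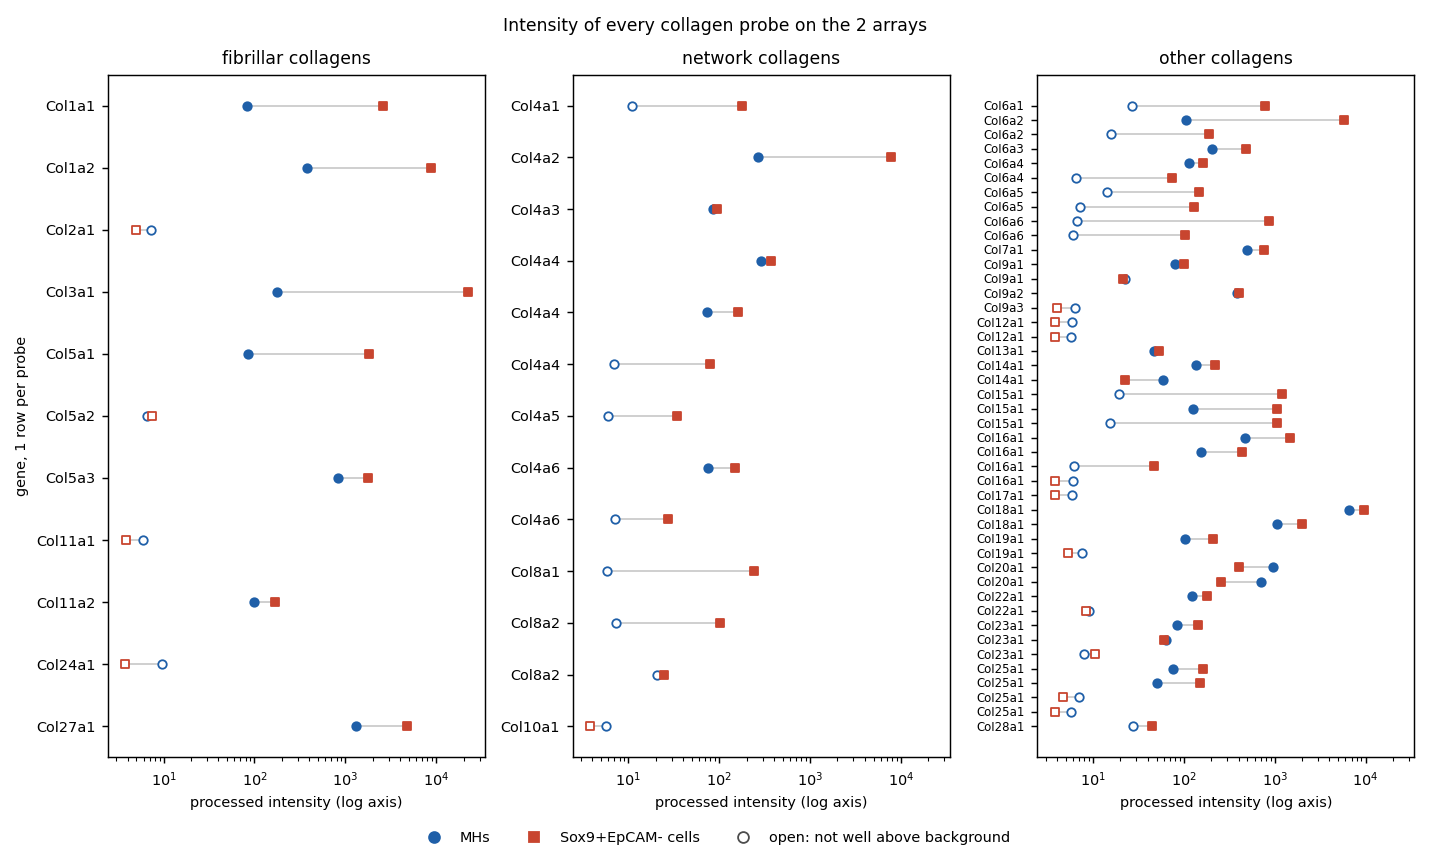
Processed intensity (log axis) of each of the 68 collagen probes, 1 row per probe, on the MH array (circles) and the Sox9+EpCAM- array (squares), by class of collagen. Open symbols are not well above background. The longest line among the fibrillar chains is that of Col3a1, from 175 to 22300, while the probes of Col20a1 lie to the left on the Sox9+EpCAM- array.

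Among the fibrillar chains, Col1a1, Col1a2, Col3a1 and Col5a1 were between 14.3-fold and 85.1-fold higher in Sox9+EpCAM- cells. Of 11 genes, 7 cleared the background in both populations and 4 in neither, and 4 of the 7 were at least 4-fold higher, against 3.94% of all genes measured on both arrays. The class had a median log2 difference of 3.84, ranging from 0.19 for Col11a2 to 6.41 for Col3a1. Each of the 4 genes has 1 probe.

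Col3a1 encodes the chain of type III collagen, which forms fine fibres together with type I. Its probe, chr1:45405589-45405648 (mm9), had an intensity of 175 in MHs and 22300 in Sox9+EpCAM- cells. After scaling, Col3a1 was 85.1-fold higher in the latter, with a log2 difference of 6.41. The value ranged from 5.99 to 6.68 over the 10 alternatives of processing. Col3a1 has 1 probe of 1 spot that cleared the background on both arrays. Alternatives on the choice of probe, outlier spots and bounds thus could not move it.

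Type I collagen, the most abundant collagen of scars, is assembled from the products of Col1a1 and Col1a2. The probe of Col1a1, chr11:94813115-94813174, had an intensity of 82.6 in MHs and 2630 in Sox9+EpCAM- cells, which is 21.3-fold higher. That of Col1a2, chr6:4490619-4490678, had 377 in MHs and 8700 in Sox9+EpCAM- cells, which is 15.4-fold higher. The log2 differences of the chains of this trimer were thus 4.41 and 3.95, and both chains were well above background in MHs too. Under normexp correction, which models the background and adds an offset that compresses low signals, the log2 difference of Col1a1 was 3.60.

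Type V collagen lies within type I fibres and starts their assembly. Col5a1, with its probe at chr2:27892892-27892951, had an intensity of 85.8 in MHs and 1840 in Sox9+EpCAM- cells, 14.3-fold higher, a log2 difference of 3.84 that was 2.86 under normexp correction. Its partner chain Col5a2 was not well above background on either array, with intensities of 6.48 and 7.37, so that 1 probe at 45431204 to 45431263 of chromosome 1 gives no difference for it. Col5a3 had intensities of 823 and 1780 and was 1.44-fold higher. Of the type V chains, Col5a1 alone was beyond 4-fold.

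Col27a1, a fibrillar chain of cartilage, had intensities of 1320 and 4780, a log2 difference of 1.27. Col11a2, a chain of cartilage fibrils, had intensities of 98.2 and 168 and a log2 difference of 0.19. Col2a1, the main chain of cartilage, and Col11a1 and Col24a1 were not well above background on either array, with intensities from 3.80 to 9.64.

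Promoter sequences are shown for the fibrillar chains that were at least 4-fold higher and have 1 entry in the RefSeq promoter table of GRCm38.p6; no entry was found for Col1a1. Each line gives the bases before the annotated start of the gene, 5′ to 3′ on the plus strand, at chr6:4505368-4505617 for Col1a2, chr1:45311288-45311537 for Col3a1 and chr2:27886175-27886380 for Col5a1. The line of Col5a1 ends 44 bases before the start that the promoter table uses, where the gene begins in the RefSeq gene table, and positions are counted from the former. Capitals mark a CCAAT box (CCAAT), a GC box (GGGCGG) or a TATA box (TATAAA) on either strand.
Col1a2: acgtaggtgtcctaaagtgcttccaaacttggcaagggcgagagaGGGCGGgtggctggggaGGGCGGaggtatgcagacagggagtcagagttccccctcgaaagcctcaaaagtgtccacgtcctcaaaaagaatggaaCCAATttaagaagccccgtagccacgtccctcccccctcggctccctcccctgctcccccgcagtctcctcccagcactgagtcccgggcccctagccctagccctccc
Col3a1: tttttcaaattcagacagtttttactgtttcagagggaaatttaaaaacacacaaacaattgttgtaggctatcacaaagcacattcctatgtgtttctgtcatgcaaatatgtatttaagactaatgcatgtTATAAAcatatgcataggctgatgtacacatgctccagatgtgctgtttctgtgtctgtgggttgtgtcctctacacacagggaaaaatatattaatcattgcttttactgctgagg
Col5a1: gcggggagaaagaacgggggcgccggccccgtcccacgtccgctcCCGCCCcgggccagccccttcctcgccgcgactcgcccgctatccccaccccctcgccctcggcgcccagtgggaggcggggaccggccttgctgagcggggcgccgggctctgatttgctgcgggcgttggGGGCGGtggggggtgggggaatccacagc
The promoter of Col1a2 held a CCAAT box that begins 109 bases before the start, and GC boxes 188 and 205 bases before it. That of Col5a1 held a GC box 73 bases before the start and 1 on the other strand 205 bases before it. That of Col3a1 held neither, but a TATA box 117 bases before the start. Over windows of the same 300 bases, from 250 before to 50 after the start, a CCAAT box on either strand was in 13 of 38 windows of 35 collagen genes and in 37.4% of all 32851 windows. A GC box was in 23 of the 38 and in 35.7% of all, and a TATA box in 5 of the 38 and in 13.6% of all. None of these motifs contains another.

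Among the chains that form networks, Col4a1, Col4a2 and Col8a1 were higher by 4-fold or more. Of 9 genes, 4 cleared the background in both populations, 4 in Sox9+EpCAM- cells alone and 1, Col10a1, in neither. Of the 8 genes with a difference or a bound, 3 were at least 4-fold higher, against 5.59% of all genes, and the class had a median of 0.86. Col4a1 and Col8a1 passed through the Sox9+EpCAM- array alone. Of the 4 genes measured on both arrays 1, Col4a2, was at least 4-fold higher, against 3.94% of all such genes, and their median was 0.094.

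Col4a1 and Col4a2 encode the chains of the common type IV trimer of basement membranes and lie side by side on chromosome 8 in opposite directions. Col4a2, with its probe at 11448840 to 11448899, had an intensity of 267 in MHs and 7740 in Sox9+EpCAM- cells, 19.4-fold higher, a log2 difference of 4.27. Col4a1 is the only collagen printed several times on the array, with 10 spots at 11199009 to 11199068, of which 9 were kept. Over these 9 spots the intensity had a lowest value of 5.86, a median of 6.64 and a highest value of 29.0 in MHs, where 1 spot cleared the background. In Sox9+EpCAM- cells the lowest, median and highest were 171, 180 and 199, and all 9 cleared it. The spot left out had 113 in MHs, well above background, and 188 in Sox9+EpCAM- cells. Over the kept spots, the mean intensities of 11.1 and 180 gave a bound of at least 4.33-fold. This bound fell below 4-fold under 3 alternatives of processing.

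The remaining type IV chains form the basement membranes of kidney glomeruli and other specialised sites. Col4a3 had intensities of 85.6 and 93.7, a log2 difference of -0.45. Col4a4, with 3 probes, had 288 and 371 by its brightest probe, a log2 difference of -0.22. Its other probes had 73.9 and 161, 1.45-fold higher, and 6.94, not well above background, and 78.9, at least 1.89-fold higher. Col4a6 had 75.1 and 149, a log2 difference of 0.41. Col4a5 had intensities of 5.94, not well above background, and 34, which is too low for a fold.

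Type VIII collagen forms hexagonal networks in vessel walls and beneath endothelia. Col8a1, with its probe at chr16:57624471-57624530, had an intensity of 5.81 in MHs, not well above background, and 239 in Sox9+EpCAM- cells, at least 5.74-fold higher, a bound that fell below 4-fold under normexp correction. Col8a2 had 7.26 and 103 by its brightest probe, at least 2.47-fold higher, and its second probe had 20.7 and 24.7, which gives no fold.

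**Figure D2:**
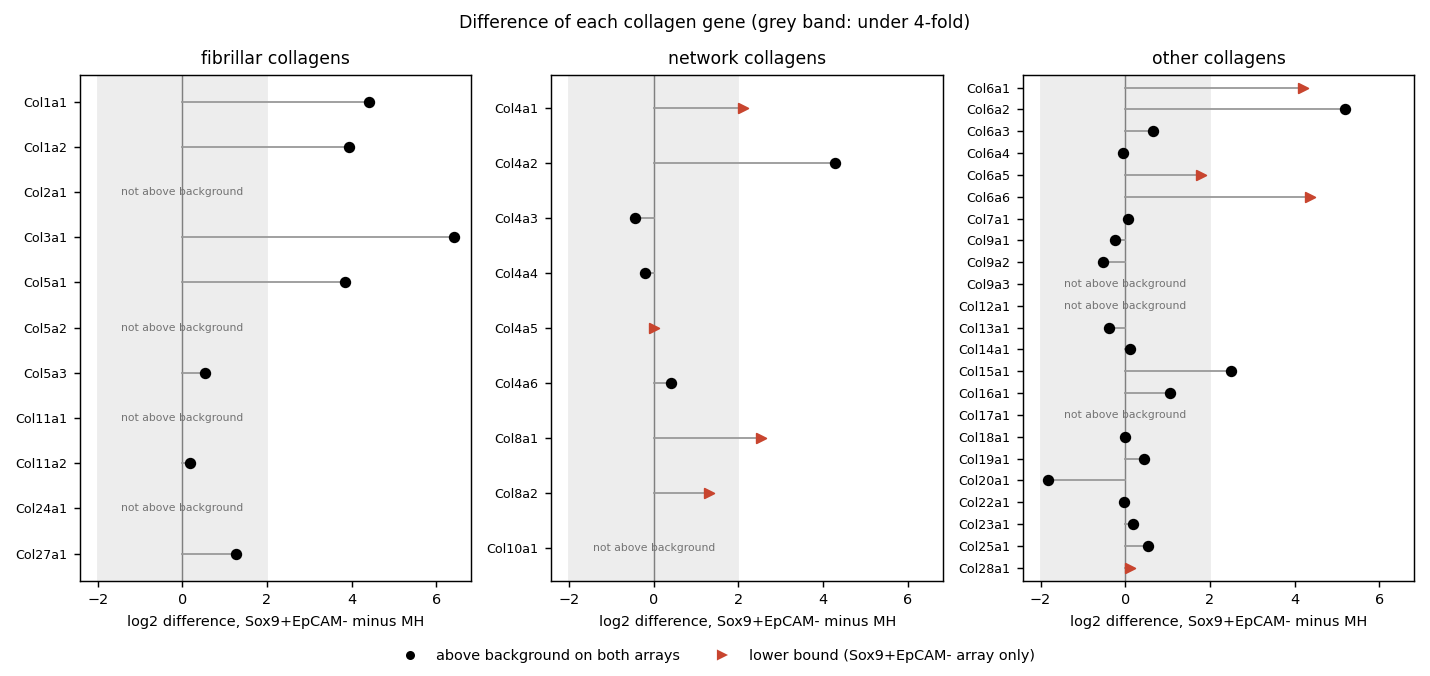
Log2 difference (Sox9+EpCAM- minus MH) of the collagen genes by their brightest probe, by class. Of the 43 genes, 35 have a difference or a bound, and 8 are labelled as not above background. Black points are measured on both arrays, red arrowheads are lower bounds, a bound under 1-fold is drawn at 0, and the grey band is under 4-fold. Points beyond the band on the right include Col3a1 at 6.41, Col6a2 at 5.19 and Col1a1 at 4.41, and no gene lies beyond it on the left.

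Among the 23 other chains, Col6a1, Col6a2 and Col6a6 of the 6 type VI chains and Col15a1 were higher by 4-fold or more, while the fibril-associated and transmembrane chains with a difference lay within 4-fold by their brightest probe. Of these genes, 16 cleared the background in both populations, 4 in Sox9+EpCAM- cells alone and 3 in neither. At least 4-fold higher were 4 of 20, against 5.59% of all genes, and the median of the 20 was 0.15. Col6a1 and Col6a6 passed through the Sox9+EpCAM- array alone. Of the 16 genes measured on both arrays 2, Col6a2 and Col15a1, were at least 4-fold higher, against 3.94% of all such genes, and their median was 0.083.

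Type VI collagen is built from the products of Col6a1, Col6a2 and 1 of several longer chains. Col6a2 and Col6a1 are neighbours on chromosome 10, and both were higher. The brightest probe of Col6a2, at 76058931 to 76058990, had an intensity of 106 in MHs and 5800 in Sox9+EpCAM- cells, 36.5-fold higher, and its second probe, at 76060580 to 76060639, had 15.7, not well above background, and 188, at least 4.51-fold higher. Col6a1, at 76171538 to 76171597, had 27.0 in MHs, not well above background, and 771 in Sox9+EpCAM- cells, at least 18.5-fold higher. Under normexp correction the log2 difference of Col6a2 was 4.49 in place of 5.19, and 3.68 by the median of its probes, and that of Col6a1 was 2.53 in place of at least 4.21.
The long chains differed among themselves. Col6a3, the usual partner of these chains, had intensities of 202 and 479 by its probe at 92663663 to 92663722 of chromosome 1, which is 1.58-fold higher. Col6a6 had 6.66, not well above background, and 863 by the probe at 105591795 to 105591854 of chromosome 9, at least 20.7-fold higher, and 6.01 and 103 by the other probe, at least 2.47-fold. Its log2 difference, at least 4.37, was 2.69 under normexp correction, 2.84 by the median of its probes and 6.43 with no bound. Its neighbour Col6a5 had 14.4 and 145, at least 3.48-fold higher, with neither probe well above background in MHs, and Col6a4, next in the row, had 113 and 163, a log2 difference of -0.05. Of the long chains, Col6a6 was thus beyond 4-fold and Col6a3 was not.

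Type XV and type XVIII collagens are proteoglycans of basement membrane zones, and endostatin is cut from the latter. Col15a1 was higher by each of its 3 probes, whose letters are shown because the probes give different sizes. All lie on the plus strand of chromosome 4 (mm9), and the sequences are printed 5′ to 3′ as the array design gives them. The probe at 47283786 to 47283845 is shown whole, with capitals on the codons for glycine that stand at every 9th base, the mark of the triple helix. Of the other 2 probes, which overlap on the genome, bases 16 to 45 are shown, and capitals mark the 18 bases that both windows hold.
Col15a1 at 47283786: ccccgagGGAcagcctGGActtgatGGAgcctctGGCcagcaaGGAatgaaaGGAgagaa
Col15a1 at 47325261: catctgtcaaaaGAGAAACCAAAGAAAACA
Col15a1 at 47325273: GAGAAACCAAAGAAAACAtacctcagtata
The probe with the glycine repeat had an intensity of 126 in MHs and 1060 in Sox9+EpCAM- cells, which is 5.62-fold higher, or 2.49 on the log2 scale. The overlapping probes had 15.2 and 19.4 in MHs, not well above background, and 1050 and 1210 in Sox9+EpCAM- cells, log2 differences of at least 4.66 and 4.86. Such a repeat of GG at every 9th base over the whole probe was found in 2 of the 68 collagen probes, 1 of Col15a1 and 1 of Col25a1, and in 6 of all 39429 probes. Col18a1, which hepatocytes are known to make, had intensities of 6480 and 9660 by the brighter probe, at chr10:76515790-76515849, a log2 difference of -0.01, and 1060 and 1980 by the other, a log2 difference of 0.32.

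Fibril-associated collagens sit on the surface of fibres and link them to other matrix. None of the 7 genes with a difference, all measured on both arrays, was at least 4-fold higher, against 3.94% of all such genes. With 7 genes this count is near that share. The median was -0.03. The farthest was Col20a1, a chain with no established role in liver, whose probes both gave lower values in Sox9+EpCAM- cells. The brighter, at 180750502 to 180750561 of chromosome 2, had intensities of 946 and 400, 3.54-fold lower, and the other, at 180752070 to 180752129, had 711 and 259, 4.11-fold lower. Col14a1, which binds type I fibres, had intensities of 136 and 220 by the brighter probe, at 55347733 to 55347792 of chromosome 15, a log2 difference of 0.11. Its other probe, at 55352264 to 55352323, had 58.5 and 22.3, a log2 difference of -1.97, so the probes of Col14a1 disagree by more than 4-fold. Col16a1 had intensities of 472 and 1470, 2.08-fold higher, and 1.91-fold by the next probe. Col9a1, Col9a2, Col19a1 and Col22a1 lay between -0.54 and 0.44, and Col9a3 and Col12a1 were not well above background on either array.

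The transmembrane chains Col13a1, Col23a1 and Col25a1 lay between -0.38 and 0.53, and Col17a1, a component of hemidesmosomes, was not well above background on either array. Col7a1, which forms anchoring fibrils under the skin, had intensities of 491 and 764, a log2 difference of 0.05. Col28a1 had 27.2, not well above background, and 44.9, at least 1.08-fold higher.

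**Figure D3:**
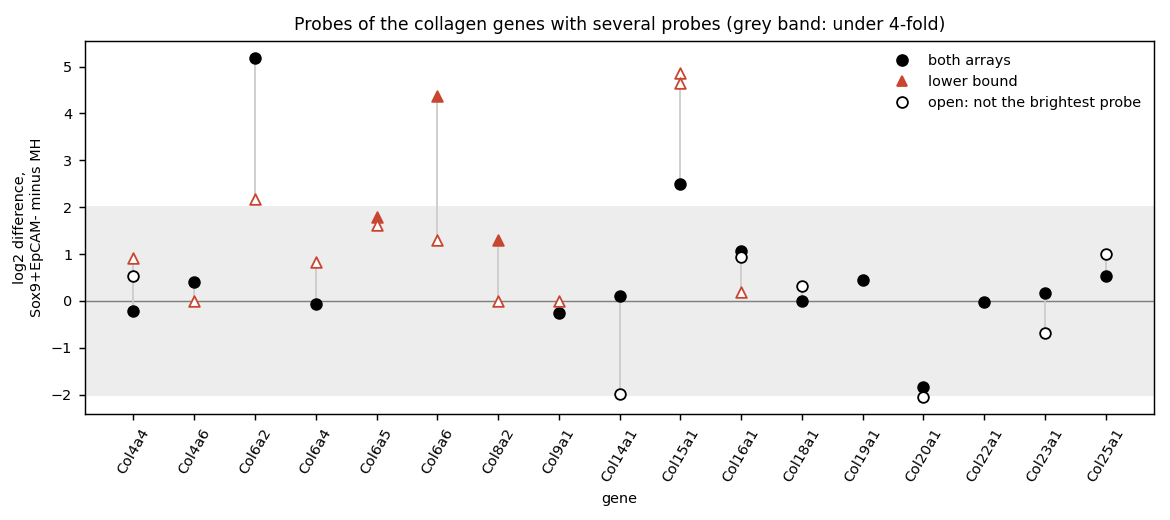
Log2 difference (Sox9+EpCAM- minus MH) of each probe of the 17 collagen genes that have several probes and at least 1 above background. Filled symbols are the brightest probe of a gene, open ones its other probes, triangles are lower bounds, and a bound under 1-fold is drawn at 0. The probes of Col15a1 lie between 2.49 and 4.86, and those of Col14a1 lie apart at 0.11 and -1.97.

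Stretches of bases shared between probes were looked for in their letters. Of the 68 collagen probes, 0 hold a run of 20 bases that also occurs in a probe for a different gene, against 7.19% of all 39429 probes. Probes were compared with probes and not with transcripts, so cross-reaction was not tested. The 11 genes at least 4-fold higher lie on 9 chromosomes. Among neighbours, both of Col4a1 and Col4a2 and both of Col6a1 and Col6a2 were higher. By their brightest probes, Col6a5 and Col6a4, side by side on chromosome 9, had log2 differences of at least 1.80 and of -0.05. Likewise, Col4a3 and Col4a4 had -0.45 and -0.22. Col5a2, next to Col3a1 on chromosome 1, gives no difference.

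The genes that make and process collagen differed unevenly. Of 19 genes for chaperones and modifying enzymes, 4 were at least 4-fold higher and 0 lower, against 5.59% and 5.57% of all genes. The median log2 difference was 0.05. All 4 higher genes were among 5 that passed through the Sox9+EpCAM- array alone and could not come out lower. Over the 14 genes measured on both arrays the median was -0.56. Of these 14, 0 were at least 4-fold higher and 0 lower, against 3.94% and 4.75% of all such genes. Leprel2, a prolyl 3-hydroxylase, had intensities of 16 and 1130, at least 27.1-fold higher, and Leprel4, a partner of lysine hydroxylation, had 6.36 and 377, at least 9.05-fold. P4ha1, a catalytic subunit of prolyl 4-hydroxylase, was at least 4.60-fold higher, and Plod2, the lysyl hydroxylase of telopeptides, at least 4.56-fold. Leprel4 and P4ha1 have 2 probes each, of which 1 was at least 4-fold higher. Among the genes of this list measured on both arrays, the farthest were Leprel1, Crtap and Ppib, with log2 differences of -1.59, -1.52 and -1.24. Serpinh1, the collagen chaperone HSP47, had intensities of 150 and 377, a log2 difference of 0.75.

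Of 13 genes for removal of propeptides and for crosslinking, 10 had a difference and 2 were at least 4-fold higher, against 5.59% of all genes. Both were among the 9 genes measured on both arrays, against 3.94% of all such genes, and the median log2 difference of the 9 was 1.10. Adamts2, which removes the aminoterminal propeptide of fibrillar collagens, had intensities of 39.0 and 1490, 25.5-fold higher. Lox, which crosslinks collagen and elastin, had 92.8 and 1790, 12.9-fold higher, and Loxl1 had 288 and 1600, 3.71-fold higher. Bmp1, which removes the carboxyterminal propeptide, had 3520 and 9530, a log2 difference of 0.85.

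Of 10 collagen receptors, 3 were at least 4-fold higher, against 5.59% of all genes. All 3 passed through the Sox9+EpCAM- array alone, and of the 5 measured on both arrays 0 were at least 4-fold higher, against 3.94% of all such genes, with a median log2 difference of -0.23, where that of all such genes was -0.20. These were Mrc2, which takes up cleaved collagen, at least 8.60-fold, Ddr2, a receptor kinase for fibrillar collagen, at least 8.43-fold, and the integrin chain Itga11 at least 5.19-fold, each not well above background in MHs. Of the 3 probes of Mrc2 and the 2 of Ddr2, 1 each was at least 4-fold higher. Among the receptors measured on both arrays, the farthest were Lair1 with a log2 difference of -1.38, Itga1 with 1.13 and Gp6 with 0.50. Of 9 genes for breakdown of collagen and its inhibitors, 7 had a difference and 4 were at least 4-fold higher, against 5.59% of all genes. Of the 4, 3 were among the 5 measured on both arrays, whose median was 2.02, against 3.94% of all such genes. Mmp2, a gelatinase, had 5.85, not well above background, and 508, at least 12.2-fold higher. Timp2, an inhibitor of these proteases, had 257 and 4170, 10.8-fold higher, Mmp8, a neutrophil collagenase, was 7.90-fold higher and Timp3 was 4.06-fold higher.

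Markers of other cell types were read on the same arrays. Of 16 markers of stellate cells and portal fibroblasts, 14 had a difference, of which 5 were at least 4-fold higher and 2 at least 4-fold lower, against 5.59% and 5.57% of all genes, and their summed intensity was 12.6 times the 75th percentile in MHs and 28.5 times in Sox9+EpCAM- cells. Dcn, a proteoglycan that binds collagen, made up much of this sum, with intensities of 8080 and 15000 and a log2 difference of 0.31, and without it the sums were 1.71 and 15.0 times. All 5 higher genes passed through the Sox9+EpCAM- array alone, and of the 6 measured on both arrays 0 were at least 4-fold higher, against 3.94% of all such genes, with a median of 0.36. Eln, encoding elastin, Mgp, Dpt, Fbln2 and Lum were at least 134-fold, 129-fold, 64.6-fold, 19.9-fold and 6.82-fold higher, each not well above background in MHs. Lrat, the retinol enzyme that defines resting stellate cells, was not well above background in Sox9+EpCAM- cells and had 94.6 in MHs, and Rgs5, a pericyte marker, was 4.75-fold lower. Pdgfrb, the receptor of activated stellate cells, and Hand2 were not well above background on either array. Des and Acta2, contractile markers of the same cells, had log2 differences of 0.09 and 0.42. Of the rest of the list, Reln and Thy1 were 2.16-fold and 1.70-fold higher. Pdgfra, not well above background in MHs, was at least 3.59-fold higher, and Ngfr, with 17.2 and 21.5, gives no fold. The part of such cells in the collagen values was not tested.

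Of 10 endothelial markers, 9 had a difference and 6 of them were lower by 4-fold or more, against 5.57% of all genes, with a summed intensity of 8.06 times the 75th percentile in MHs and 2.30 times in Sox9+EpCAM- cells. Of the 6, Cdh5 and Oit3 passed through the MH array alone and could not come out higher, and of the 7 markers measured on both arrays 4 were at least 4-fold lower, against 4.75% of all such genes. Without Kdr, the brightest, the sums were 4.58 and 1.04 times. Stab2, a scavenger receptor of sinusoidal endothelium, was 8.09-fold lower, and Cdh5 and Oit3 were not well above background in Sox9+EpCAM- cells. Of 8 leukocyte markers, 4 were at least 4-fold lower, against 5.57% of all genes, and 1, Cd68, was 14.4-fold higher, against 5.59%, and their sum was 16.4 times the 75th percentile in MHs and 3.42 times in Sox9+EpCAM- cells. C1qc passed through the MH array alone, and of the 7 measured on both arrays 3 were at least 4-fold lower, against 4.75% of all such genes. Cd74, with intensities of 9340 and 1670, carried much of the sum, which was 3.80 and 1.92 times without it. Of 7 cholangiocyte markers, 2 were at least 4-fold higher, Spp1 and Epcam, against 5.59% of all genes, while Krt7 and Krt19 had log2 differences of -0.23 and 0.42, and their sum was 2.27 times the 75th percentile in MHs and 48.9 times in Sox9+EpCAM- cells. Spp1, which encodes osteopontin, carried most of that sum, with intensities of 258 and 47000, and without it the sums were 1.92 and 6.52 times, while the list had a median log2 difference of 0.54 and Cftr, a chloride channel, had intensities of 69.6 and 52.1. Of 8 hepatocyte markers, 3 were at least 4-fold lower, against 5.57% of all genes, with Cyp3a11 the lowest at a log2 difference of -8.58, and their sum was 1062 times the 75th percentile in MHs and 443 times in Sox9+EpCAM- cells, or 783 and 289 times without Alb. The part of these cells in the collagen values was not tested either.

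**Figure D4:**
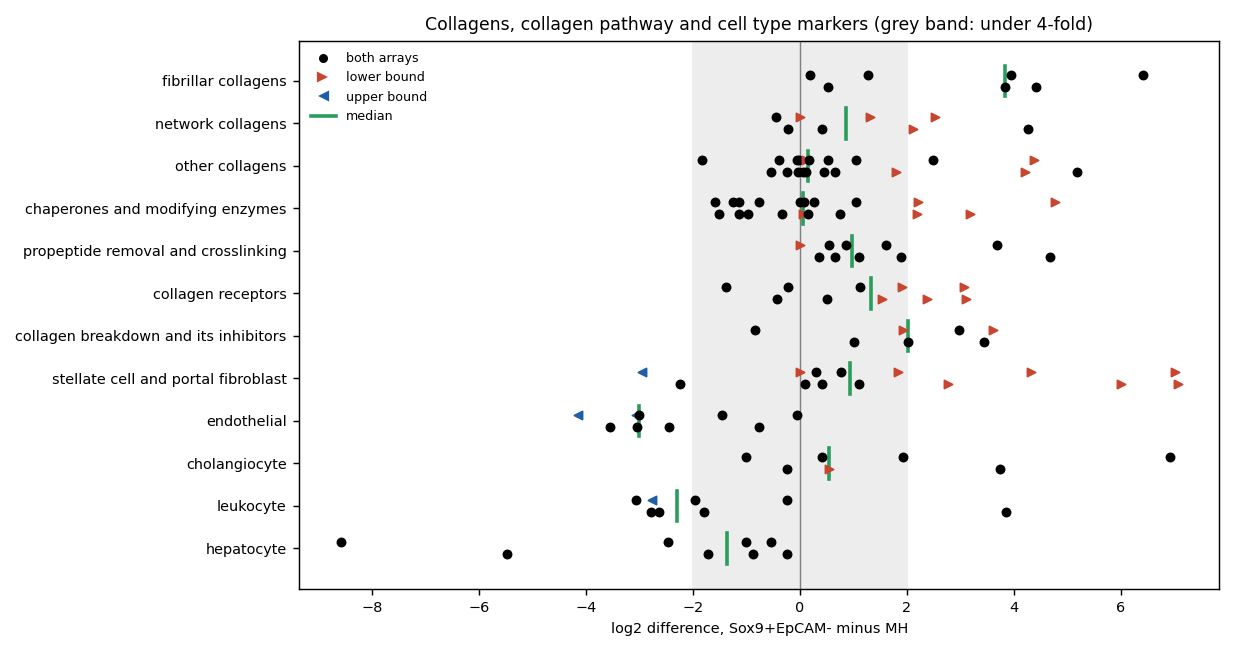
Log2 difference (Sox9+EpCAM- minus MH) of the genes of each collagen class, each collagen pathway list and each cell type marker list, 1 point per gene. Red and blue arrowheads are lower and upper bounds, green bars are medians over the points shown, a bound under 1-fold is drawn at 0, and the grey band is under 4-fold. The median is 3.84 for the fibrillar collagens and -3.02 for the endothelial markers.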

How the data were processed

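RNA of 1 MH sample and 1 Sox9+EpCAM- sample was labelled with Cy3 by a service provider and hybridised to 1 array each. The authors deposited, per the file headers, intensities written by Feature Extraction 10.7.3.1, already background-subtracted and detrended within each array but not normalized between arrays, and other flags of 0 or 1 for each spot. The deposited table of ratio values is this intensity divided by the median of the array (the log2 factor had an SD of 0.0018 over spots in either table). Probe coordinates are those of the design, on mm9; exons were not assigned, since no annotation of that build was used here.

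Intensities were scaled to each array's 75th percentile, then log2-transformed. Spots with a non-uniformity or population outlier flag in either file were dropped, the spots of a probe were averaged, and a probe was well above background when at least 50 percent of its spots were. The brightest probe over both arrays stood for a gene, and differences were called at 4-fold; no test was possible with 1 array per group. Named in full were collagens with a probe at least 4-fold different, those with probes that disagree and 13 chains known in liver; from each pathway list, genes at least 4-fold different and the 3 farthest measured on both arrays; any other gene was chosen once its values were known. The members and lists were chosen with earlier results of these data known. Promoters are those of RefSeq (GRCm38.p6). The alternatives were normexp correction (limma 3.58.1 in R 4.3.3, offset 50), other scalings, other choices of probe, outlier spots kept, no bound, both arrays above background, the deposited table, and thresholds of 2-fold and 10-fold. Python 3.11.15 with pandas 2.3.3, numpy 2.4.6 and matplotlib 3.10.9 was used, and the procedure was tested on simulated data.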

Additional observations from a re-analysis of the deposited data

How the results depend on the processing

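The count of 11 collagen genes at least 4-fold higher lay between 9 and 13 under other processing at the same threshold, was 15 at a threshold of 2-fold and 8 at 10-fold, and was 7 when genes had to clear the background in both populations, where bounds are left out by construction. The count of genes at least 4-fold lower was 1 in place of 0 with the probe of the largest difference, in the deposited table and at a threshold of 2-fold, and the gene was Col20a1. The median of the fibrillar chains was 2.86 under normexp correction and 0.53 with plain differences, which also count genes that cleared the background in neither population. That of the network chains was 0.13 under normexp correction, 0.094 over genes that cleared the background in both populations and 1.93 with plain differences. Of 11 genes at least 4-fold higher, 9 stayed so under each alternative that gave a value; Col4a1 fell below 4-fold under 3 alternatives, to 0.94 on the log2 scale at the lowest, and Col8a1 under 1, normexp correction, to 1.31. The offset of normexp correction compresses low signals; the cause of the other moves was not tested. None of the 11 genes changed sign under these alternatives, but they were chosen for a difference of 4-fold or more. A negative lower bound was set to 0 and so could not change sign. A gene with 1 probe could not move under other choices of probe. Signal over background limits the 8 collagens for which MHs give a bound alone and the 8 that cleared the background in neither population. A replicate could not be left out, nor the slide fitted as a block. No paired analysis was possible because MHs and Sox9+EpCAM- cells have a single array each.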
